A study of Homo sapiens with 8 samples.

Results

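The zinc finger genes of human chromosome 19 were taken as the RefSeq protein-coding genes of that chromosome whose symbol begins with ZNF or ZFP followed by a number. This rule gave 255 genes (250 ZNF and 5 ZFP) of 1451 protein-coding genes on chromosome 19 and of 19970 on chromosomes 1 to 22 and X. They include entries with hyphenated symbols, such as ZNF765-ZNF761, which overlaps ZNF765, and ZNF470-DT. It uses names and positions only and no measured value. A gene was said to have a peak in a library where at least 1 bp of a peak lay in the gene or within 1 kb of either end. Of the 255 genes, 84 lie on the short arm (19p) and 171 on the long arm (19q).

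The peaks come from KAS-seq, in which N3-kethoxal reacts with unpaired guanines in living cells so that opened, single-stranded DNA can be enriched and sequenced. All samples came from HEK293T, a human embryonic kidney cell line in wide use, as named in every title, although the number in the cell line field differs between samples. The control group was kept without vitamin C and the other group was given vitamin C (ascorbic acid) at 0.5 mM over 10 min; N3-kethoxal was then applied to both at 5 mM over 10 min. Each group had 2 labelled libraries, each with its own peak list, while the 4 inputs were not analysed here. The labels do not say whether replicates were separate cultures. The p-values here therefore compare libraries only, and differences between libraries of 1 group may be purely technical.

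Most zinc finger genes of chromosome 19 encode DNA-binding proteins with tandem arrays of fingers, and many also carry a KRAB domain. KRAB recruits the corepressor TRIM28 (KAP1), which brings in the histone methyltransferase SETDB1 and heterochromatin proteins, and many of these factors silence transposable elements. The genes arose by tandem duplication and stand in dense clusters of near-identical neighbours. Not every gene under the rule is such a factor: ZFP36 encodes tristetraprolin, an RNA-binding protein that promotes decay of cytokine mRNAs. How reads that match several copies were placed is not given in the sources used here, and its part in the values below was not tested.

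The lists held 30351 and 24111 peaks in controls 1 and 2 and 9816 and 9896 in vitamin C 1 and 2, on chromosomes 1 to 22 and X. Read numbers are not in the lists. The genome background, solved from the peaks' fold and p, was 0.817 fragments per position in control 1, 0.849 in control 2, 1.22 in vitamin C 1 and 0.871 in vitamin C 2. The part of sequencing depth in the list lengths was not tested. Of 8 genes listed for HEK293 cells, VIM had peaks in all 4 libraries, EN2 in 3, GATA3 in control 1, and PAX2, LHX1, NEFL and NEFM in none. Of 12 genes of other cell types, 10 had no peak in any library, and ALB had one in vitamin C 1.

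Promoter windows from RefSeq (GRCh38.p14, the same build as hg38) reach from 250 bases before to 50 bases after an annotated start and were found for 222 of the 255 genes, in 275 windows of 300 bases. They were searched on both strands for GGGCGG (the GC box of Sp and KLF factors), CCAAT (the box bound by NF-Y) and CCGGAA (the core site of ETS factors), each with its reverse complement. Matches of different motifs overlapped in 5 of the 275 windows. CCGGAA was present in 50.5% of the zinc finger windows, against 21.6% of the windows of other coding genes of chromosome 19 and 21.2% of all 22131 coding gene windows. CCAAT was present in 49.1%, with 79.5% on 19p and 37.1% on 19q, against 34.6% of all windows. GGGCGG was present in 64.7%, with 79.5% on 19p and 58.9% on 19q, against 56.3% of all windows. These are matches of letters, not binding sites.

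A peak lay over the window itself in both controls for 23 windows of 17 genes. All 4 libraries had one at 9 windows of 6 genes, and the controls alone at 8 windows of 7 genes. Among windows of other coding genes, 1458 of 21856 had a peak in both controls. Zinc finger windows with a peak made up 12.7% for control 1, 11.3% for control 2, 3.27% for vitamin C 1 and 6.55% for vitamin C 2. Over all windows these shares were 9.73%, 8.26%, 4.24% and 4.16%. At ZNF790 the controls-alone window starts at base 36838338, and a peak of each vitamin C library ends just short of it, at 36838328. Shown are windows of 3 genes with a peak in all 4 libraries (ZNF580, chr19:55641802-55642101, plus strand; ZNF577, chr19:51887902-51888201, minus strand; ZNF565, chr19:36215035-36215334, minus strand) and of 2 genes with a peak there in the controls alone (ZNF274, chr19:58182811-58183110, and ZNF460, chr19:57279732-57280031, both plus strand), each 5′ to 3′ on the gene's strand with the 3 motifs in capitals.
ZNF580: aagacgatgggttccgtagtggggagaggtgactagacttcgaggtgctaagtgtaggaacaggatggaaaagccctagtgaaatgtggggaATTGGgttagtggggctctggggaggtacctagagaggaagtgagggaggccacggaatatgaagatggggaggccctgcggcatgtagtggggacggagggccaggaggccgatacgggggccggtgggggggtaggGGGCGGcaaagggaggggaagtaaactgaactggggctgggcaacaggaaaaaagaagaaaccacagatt
ZNF577: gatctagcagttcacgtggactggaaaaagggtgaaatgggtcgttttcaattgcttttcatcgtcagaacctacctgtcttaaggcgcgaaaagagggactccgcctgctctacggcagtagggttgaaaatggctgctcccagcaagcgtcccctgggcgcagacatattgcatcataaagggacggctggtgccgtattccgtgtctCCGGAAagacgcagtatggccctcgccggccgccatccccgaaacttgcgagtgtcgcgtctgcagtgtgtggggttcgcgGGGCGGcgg
ZNF565: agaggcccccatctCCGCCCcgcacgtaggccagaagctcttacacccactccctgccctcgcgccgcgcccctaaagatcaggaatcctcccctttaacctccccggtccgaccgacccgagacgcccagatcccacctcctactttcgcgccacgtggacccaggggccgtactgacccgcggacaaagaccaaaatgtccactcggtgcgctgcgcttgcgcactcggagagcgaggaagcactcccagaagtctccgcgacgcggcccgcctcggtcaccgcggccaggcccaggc
ZNF274: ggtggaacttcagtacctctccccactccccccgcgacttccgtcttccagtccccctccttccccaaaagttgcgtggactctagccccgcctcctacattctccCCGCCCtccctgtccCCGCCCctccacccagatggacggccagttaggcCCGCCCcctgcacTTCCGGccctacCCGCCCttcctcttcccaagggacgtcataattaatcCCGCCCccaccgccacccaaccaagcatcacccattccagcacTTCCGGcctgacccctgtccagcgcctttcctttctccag
ZNF460: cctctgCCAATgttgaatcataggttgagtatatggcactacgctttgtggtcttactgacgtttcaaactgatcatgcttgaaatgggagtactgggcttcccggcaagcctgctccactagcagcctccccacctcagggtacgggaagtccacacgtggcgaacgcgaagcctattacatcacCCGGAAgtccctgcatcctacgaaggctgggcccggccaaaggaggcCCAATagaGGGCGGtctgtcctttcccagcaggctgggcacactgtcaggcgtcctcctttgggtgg

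The windows differed in the guanines that N3-kethoxal can label on the printed strand. Guanine made up 44.0% of the ZNF580 window and cytosine 13.7%. At ZNF274 the order was reversed, with 15.7% guanine and 48.7% cytosine. ZNF577 held 31.7% guanine, ZNF565 25% and ZNF460 27.7%. ZNF274 held 5 GC boxes and 2 ETS cores, ZNF460 had 2 CCAAT boxes, and ZNF577 had 1 GC box and 1 ETS core. Median GC content was 59.0% in the 9 windows with a peak in all 4 libraries, 57.5% in the 8 with a peak in the controls alone and 60.7% in the 232 with no peak in any library.

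Opened DNA was called at fewer zinc finger genes after vitamin C. Peaks were present at 112 and 103 of the 255 genes in the controls against at 43 and 47 with vitamin C, a mean of 107.5 ± 6.36 (SD, n = 2) against 45.0 ± 2.83 (SD, n = 2). Both vitamin C libraries lay below both controls. An exact two-sided permutation test gave p = 0.33, and with 2 libraries a group no comparison here can go lower. The peaks themselves numbered 263 and 212 in the controls against 59 and 68 with vitamin C, a log2 ratio of the means of -1.90 (exact p = 0.33). They covered 102 and 88.3 kb of these genes in the controls against 23.2 and 25.6 kb with vitamin C, a log2 ratio of -1.96 (exact p = 0.33). With each list limited to its 9816 peaks of lowest q, which removes the difference in list length by construction, 46 and 56 genes had a peak in the controls against 43 and 47 with vitamin C, and the log2 ratio of peak numbers was -0.08.

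Peaks at zinc finger genes were short and of middling rank. Their median width was 324 and 351 bp in the controls against 341 and 350 bp with vitamin C, a difference of 8 bp that is smaller than the control SD of 19.1 bp (exact two-sided permutation p = 1). In lists of equal length the difference was -72.0 bp. The widest spanned 1872 bp, at ZNF574 in control 2, and no peak reached 2 kb. By the authors' fold, which is each peak's own value and is ranked here only within its list, the median peak stood at the 44.0th and 47.8th percentile in the controls and the 44.1st and 47.5th with vitamin C. The depth behind a median peak was 12 and 13 fragments at the summit in the controls against 22 and 13 with vitamin C. The smallest summits called at these genes held 6 fragments in each control, 13 in vitamin C 1 and 8 in vitamin C 2.

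Compared with other genes, the zinc finger genes of chromosome 19 were at the level of the genome in the controls and below it with vitamin C. In controls 1 and 2 a peak was present at 43.9% and 40.4% of them, against 43.2% and 39.0% of the 19715 other protein-coding genes. With vitamin C the values were 16.9% and 18.4% against 23.1% and 23.05%. The difference from other genes was 1.05 ± 0.442 percentage points for controls and -5.44 ± 1.16 for vitamin C (SD, n = 2), a change of -6.49 points (exact two-sided permutation p = 0.33). Other coding genes of chromosome 19 stood at 49.7% and 46.7% in the controls against 32.9% and 32.4% with vitamin C, and the change relative to them was -8.96 points (exact two-sided permutation p = 0.33). Both changes depend on list length. In lists of equal length the share was 18.04% and 21.96% in the controls, against 24.8% and 24.7% of other genes, and the change was -0.62 points relative to all other genes and -0.10 relative to those of chromosome 19.

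**Figure D1:**
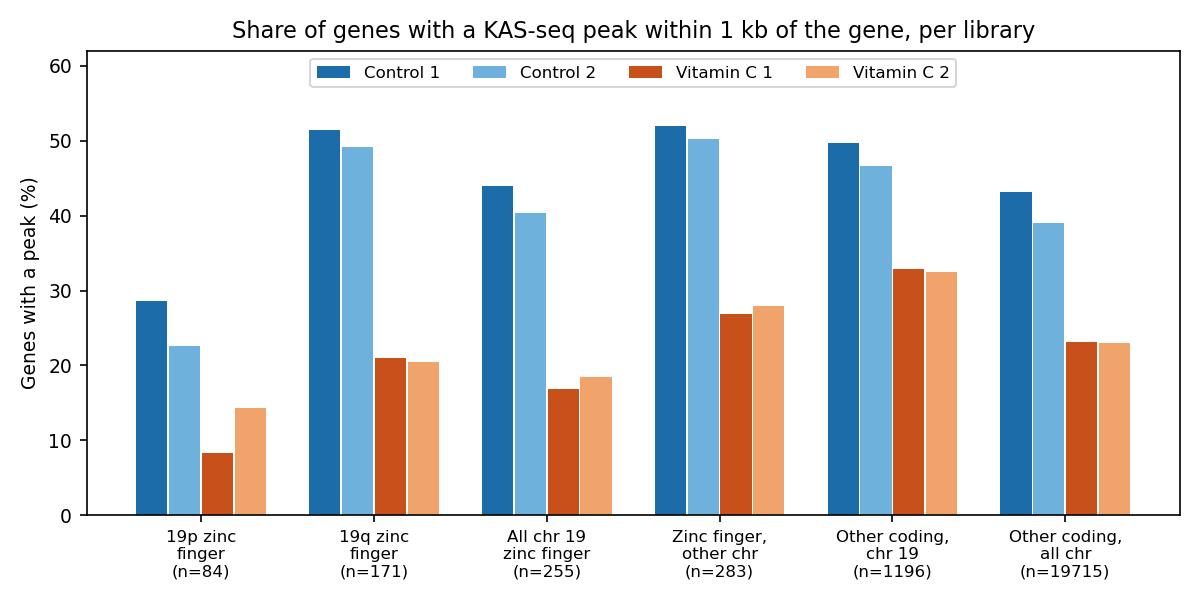
Percent of genes with at least 1 peak in the gene or within 1 kb of it (vertical axis), for 6 gene sets (horizontal axis, n = genes) in each of the 4 libraries (bars). The chromosome 19 zinc finger genes went from 43.9% and 40.4% in the controls to 16.9% and 18.4% with vitamin C, and the 19p genes stood below the 19q genes in every library.

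Zinc finger genes of other chromosomes, 283 under the same naming rule, had a peak in 51.9% and 50.2% of cases in the controls against 26.9% and 27.9% with vitamin C. The ratio of the mean shares, vitamin C over control, was 0.536 for them, 0.419 for those of chromosome 19, 0.677 for other coding genes of chromosome 19 and 0.562 for all other coding genes. These ratios were not tested against each other. Gene length differed between the sets, with a median of 23.4 kb for the zinc finger genes of chromosome 19, 12.7 kb for other coding genes of that chromosome and 24.1 kb for zinc finger genes elsewhere. Weighted to the length distribution of the chromosome 19 zinc finger genes in 5 length groups, the mean share was 52.6% in the controls and 36.5% with vitamin C for other genes of chromosome 19, and 43.8% and 25.04% for all other coding genes.

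Of the 255 genes, 124 (48.6%) had no peak in any library, against 52.5% of all 19970 coding genes. A peak was present in both controls at 88 (34.5%, against 35.3% of all coding genes) and in 1 control only at 39. Of the 88, 28 had a peak in all 4 libraries and are called kept (31.8%, 95% Clopper-Pearson interval 22.3 to 42.6), against a background of 49.7% of all 7045 coding genes with a peak in both controls. Another 33 had no peak in either vitamin C library and are called lost (37.5%, 27.4 to 48.5), against a background of 26.9%. As shares of all 19970 coding genes the backgrounds are 17.5% kept and 9.47% lost. The remaining 27 had a peak in 1 vitamin C library. No gene of the 255 was gained, that is, had peaks with vitamin C in each library but none in the controls (0 genes, background 0.025%). With a library left out the counts can only stay or rise, because a group of 1 library asks less of a call. So 55 were lost without control replicate 2 and 50 without vitamin C replicate 2, and 45 were kept without vitamin C replicate 1. In lists of equal length 5 were lost (13.9% of those with a peak in both controls, against 7.36% of other genes) and 20 kept (55.6% against 76.2%). Intervals cover counting error only, and neighbouring genes can share a peak, so the genes are not independent.

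Kept genes had stronger control peaks than lost genes. Control strength, a gene's best peak expressed as a percentile of its list and averaged over the controls, had a median of 83.3 in the 28 kept and 57.1 in the 33 lost genes. The best control peaks of kept genes had a median of 26 and 25.5 fragments at the summit and widths of 521 and 484 bp. Those of lost genes had 12 and 13 fragments and widths of 341 and 295 bp. The smallest vitamin C summits called at the zinc finger genes held 13 and 8 fragments. Among all coding genes split into 5 groups of control strength, the strongest group held 12 zinc finger genes of chromosome 19, of which 8 were kept (66.7%, 34.9 to 90.1), against 95.7% (94.5 to 96.7) of 1399 other genes. In the weakest group 1 of 21 was kept (4.76%, 0.120 to 23.8), against 15.01% of other genes. Other genes weighted to the same strength groups were kept in 42.7% of cases and lost in 31.5%, against 31.8% and 37.5%. This comparison is a description and was not tested. It compares calls at genes, which can rest on shared peaks or on the edge of a peak. In the strongest group, ZNF580 with ZNF581 and ZNF565 with ZNF146 were kept at shared best peaks. ZNF649 was lost there, met by the edge of the ZNF577 control peaks. ZNF358 and ZNF317 were not kept, though peaks of both vitamin C libraries met a best control peak of each.

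**Figure D2:**
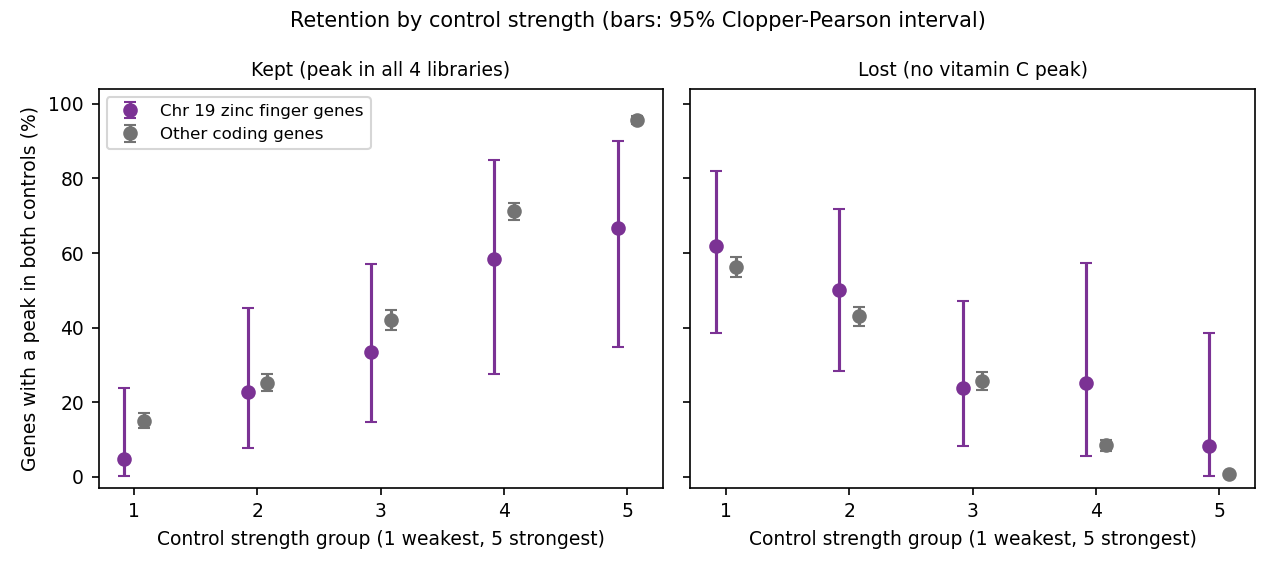
Percent of genes with a peak in both controls that were kept (left) or lost (right), by group of control strength (horizontal axis, 1 weakest to 5 strongest), for zinc finger genes of chromosome 19 and all other coding genes. Bars are 95% Clopper-Pearson intervals. In the strongest group 66.7% of the zinc finger genes and 95.7% of other genes were kept, and the zinc finger intervals are wide because each group holds 12 to 22 of them. Calls are per gene, and some of these genes share a peak or were met only by the edge of a peak.

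Presence of a peak does not mean the same peak. At 40 of the 88 genes with a peak in both controls, the best peaks of the controls overlapped, and at the other 48 they were different peaks. Among the kept genes the best control peaks overlapped at 20 of 28, and among the lost at 11 of 33. A vitamin C peak met a best control peak in both vitamin C libraries at 25 of the kept genes. At 31 of the 33 lost genes no vitamin C peak met a best control peak in either library. This follows largely from the definition of lost, which allows such a meeting only where the control peak reaches past the 1 kb window. At 18 of the 28 kept genes the controls overlapped and both vitamin C libraries met the peak, a count chosen after the data were seen.

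The strongest kept genes were ZNF580, ZNF581, ZNF574, ZNF577, ZNF565, ZNF146, ZNF324 and ZNF529. ZNF580 (chromosome 19, 55641002 to 55643470) lies within the longer ZNF581 (55635003 to 55645623), both genes of short zinc finger proteins, and they share their best peaks. Its fold by the authors was 29.7 and 19.1 in the controls against 14.99 and 16.3 with vitamin C, with 53, 79, 76 and 72 fragments at the summits. In control 1 the best peak was 1380 bp wide with its summit past the far end of ZNF580, while in the other libraries it lay over the printed ZNF580 window, 161 to 310 bp from an annotated start. The peak over the window was present in all 4 libraries, at folds of 23.1, 19.1, 14.99 and 16.3.

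ZNF565 and ZNF146 overlap on opposite strands (36182060 to 36245928 and 36214723 to 36238768) and share their best peak. ZNF146 encodes OZF, a protein made almost only of zinc fingers. The shared peak had a fold of 15.3 and 17.5 in the controls against 23.7 and 11.6 with vitamin C, over 74, 61, 68 and 43 fragments. Its summit lay within 284 to 311 bp of an annotated start of ZNF565 in all 4 libraries, next to the printed window. ZNF565 also had the most peaks of any member, 14 in each control and 7 and 9 with vitamin C, covering 7624 and 6223 bp in the controls against 2854 and 3346 bp with vitamin C. The signal here cannot be assigned to 1 of the genes.

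ZNF577 (51804442 to 51887951) and ZNF649 (51889235 to 51905017) show how the class can depend on the edge of a peak. The peak at the start of ZNF577 was 958 and 948 bp wide in the controls against 375 and 352 bp with vitamin C. Its summit stayed 175 to 195 bp past the start, with folds of 19.8, 17.2, 16.4 and 10.9 and 35, 38, 40 and 25 fragments. Of these, the wider control peaks alone reached within 1 kb of ZNF649. It had no vitamin C peak and was counted as lost, with 1 further peak in control 2, while ZNF577 was kept.

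ZNF574 (42068477 to 42081552) had folds of 20.8 and 17.4 in the controls against 15.5 and 10.3 with vitamin C, with the summit 536 to 594 bp from an annotated start in all 4 libraries. At ZNF324 (58467080 to 58475436) the best summit lay 7549 to 7608 bp past the start, at 90.3% to 91.0% of the gene, with folds of 14.9, 15.4, 7.42 and 11.8. ZNF529 (36543613 to 36605543) had folds of 12.9 and 14.1 in the controls against 7.27 and 9.27 with vitamin C, and in vitamin C 1 the best peak was another one, 344 bp before the gene's outer start. By covered bases in the controls, ZNF565, ZNF146, ZNF581, ZNF121 and ZNF814 led. At ZNF121 (9560329 to 9584504) peaks covered 3613 and 3719 bp in the controls against 1109 and 715 bp with vitamin C. At ZNF814 (57869381 to 57905128) they covered 2950 and 2919 bp in the controls against 465 and 609 bp with vitamin C. Its best peak lay at or near the far end in all 4 libraries, and each control also had a peak near the start, which in control 2 met ZNF417 as well.

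**Figure D3:**
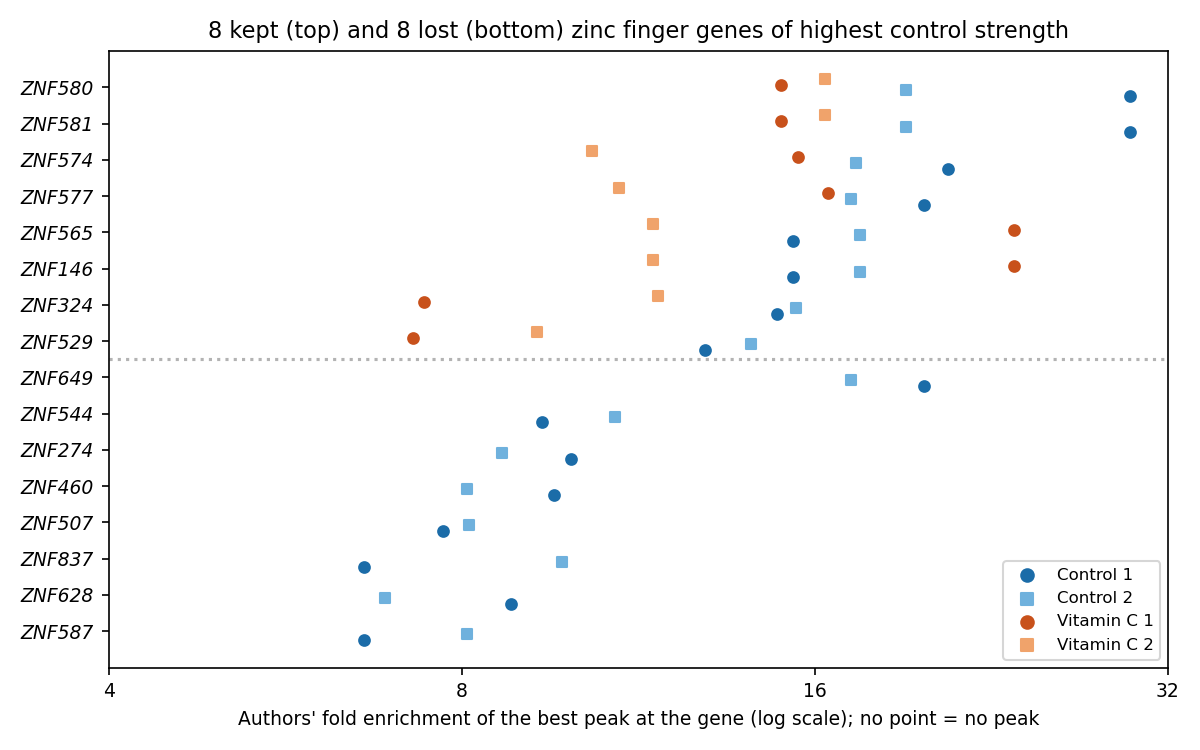
The authors' fold enrichment of the best peak at the gene (horizontal axis, log scale) for the 8 kept (above the line) and 8 lost (below) zinc finger genes of highest control strength; each point is 1 library and a missing point is a library with no peak. Kept genes reach 29.7 in control 1, and lost genes other than ZNF649 stay between 6.61 and 10.8.

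The strongest lost genes were ZNF649, ZNF544, ZNF274, ZNF460, ZNF507, ZNF837, ZNF628 and ZNF587. ZNF274 (58183061 to 58213562) encodes a KRAB zinc finger protein known to bind the 3′ ends of zinc finger genes and to recruit SETDB1 there. It had 4 peaks in each control and none with vitamin C, covering 1848 and 1241 bp. Its best peaks had folds of 9.91 and 8.65 over 17 and 15 fragments, at different places in the controls, 57.2% and 71.3% of the way through the gene. The peak over the printed ZNF274 window had folds of 5.10 and 8.14. ZNF460 (57279982 to 57294069) had 6 and 4 control peaks, with best folds of 9.59 and 8.08 over 18 and 16 fragments and 7.16 and 7.49 for the peak over its printed window.

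ZNF544 (58228914 to 58277455) had overlapping best peaks in the controls at folds of 9.36 and 10.8, 49543 and 49575 bp past the start and thus outside the far end, where both peaks also met the neighbouring ZNF8. ZNF507 (32345610 to 32387667) had 3 and 4 control peaks with best folds of 7.71 and 8.11, and ZNF837 (58367623 to 58381030) had 2 in each control with best folds of 6.61 and 9.73. ZNF628 (55476617 to 55484487) had best folds of 8.81 and 6.88, the first at a peak shared with NAT14. ZNF587 (57849859 to 57865117) had best folds of 6.61 and 8.08. At ZNF507, ZNF837, ZNF628, ZNF587, ZNF274 and ZNF460 the best peaks of the controls did not overlap.

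Zinc finger genes of 19p had peaks less often than those of 19q in each of the 4 libraries. On 19p, 24 and 19 of 84 genes had a peak in the controls (28.6% and 22.6%) and 7 and 12 with vitamin C (8.33% and 14.3%). On 19q, 88 and 84 of 171 did so in the controls (51.5% and 49.1%) and 36 and 35 with vitamin C (21.1% and 20.5%). The 19p share minus the 19q share was -24.7 ± 2.55 points for controls and -9.45 ± 4.62 for vitamin C (SD, n = 2), a change of 15.2 points (exact two-sided permutation p = 0.33). In lists of equal length the change was 0.85 points. The ratio of the mean shares, vitamin C over control, was 0.442 on 19p and 0.413 on 19q. No peak was found in any library at 59 of the 84 genes of 19p (70.2%) and 65 of the 171 of 19q (38.0%). Over all coding genes this share was 52.5%. On 19p 5 genes were kept and 4 lost of 18 with a peak in both controls, and on 19q 23 were kept and 29 lost of 70. The median gene was 28.5 kb long on 19p and 22.1 kb on 19q. Among genes with a peak in both controls, median control strength was 72.6 on 19p and 64.4 on 19q.

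Genes no more than 500 kb apart on 1 arm were joined into clusters, which gave 10 clusters of at least 5 genes with 240 genes and left 15 genes scattered. From the short arm's tip they are p1 (2.82 to 2.94 Mb, 5 genes), p2 (8.51 to 9.79 Mb, 14 genes), p3 (11.5 to 12.6 Mb, 25 genes) and p4 (19.7 to 24.1 Mb, 37 genes). On the long arm they are q1 (34.7 to 35.0 Mb, 5 genes), q2 (36.2 to 37.8 Mb, 29 genes), q3 (43.5 to 44.5 Mb, 23 genes), q4 (51.6 to 53.6 Mb, 41 genes), q5 (55.5 to 56.7 Mb, 18 genes) and q6 (57.2 to 58.5 Mb, 43 genes). A gap of 1 Mb gave 9 clusters with 243 genes.

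Cluster p3 was among the emptiest, with peaks at 4 and 2 of 25 genes in the controls against 1 and 2 with vitamin C. Its strongest gene with a peak in both controls was ZNF791, at folds of 9.35 and 8.60. In p4 peaks were present at 10 and 8 of 37 genes in the controls and 2 in each vitamin C library, with 3 lost and none kept. The strongest gene of p4 was ZNF714, at folds of 8.08 and 8.65 in the controls and 6.62 in vitamin C 1. ZNF91, which silences SVA retrotransposons and was named here after its values were seen, lies in p4 and had 1 peak, in control 1. In p2, 6 of 14 genes had a peak in each control and 2 and 5 with vitamin C, led by ZNF317 at control folds of 15.4 and 9.98. Cluster p1 had 1 gene with peaks, ZNF77, in all 4 libraries.

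On the long arm q2 and q6 had the highest control shares and differed after vitamin C. In q2, which holds ZNF565 and ZNF146, 19 and 20 of 29 genes had a peak in the controls (65.5% and 69.0%) and 13 and 10 with vitamin C (44.8% and 34.5%), with 8 kept and 6 lost. In q6, 27 of 43 genes had a peak in each control (62.8%) and 7 and 9 with vitamin C (16.3% and 20.9%), with 4 kept and 12 lost. Peaks covered 16.5 and 13.8 kb of q2 in the controls against 6.46 and 7.01 kb with vitamin C, and 27.0 and 21.2 kb of q6 in the controls against 3.68 and 4.01 kb with vitamin C. The difference between these clusters was not tested, and lists of equal length were not run by cluster. The median gene was 33.4 kb long in q2 and 13.1 kb in q6. Neighbours met by the same peak each count as a gene. In q2 the kept pairs ZNF565 with ZNF146 and ZNF790 with ZNF345 shared peaks in all 4 libraries, while pairs in q6 shared peaks in controls only. In q6 the strongest gene was ZNF324, and ZNF274, ZNF460, ZNF544, ZNF837 and ZNF587 were among the lost.

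In q5, 10 of 18 genes had a peak in each control and 4 in each vitamin C library, led by ZNF580. In q3, 10 and 9 of 23 genes had one in the controls and 5 in each vitamin C library, led by ZNF226 (control folds of 12.7 and 9.51, and 3.55 and 9.90 with vitamin C). In q4, 15 and 12 of 41 had one in the controls against 4 and 5 with vitamin C, led by ZNF577. In q1 ZNF302 alone of 5 genes had peaks, at folds of 6.61 and 7.03 in the controls and none within 1 kb with vitamin C. Its best peak in control 1 (34686879 to 34688274) reached past that window, where a peak of 1 vitamin C library met it. Of the 3 scattered genes of 19p, 3 and 2 had a peak in the controls, and of the 12 of 19q, 6 and 5.

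**Figure D4:**
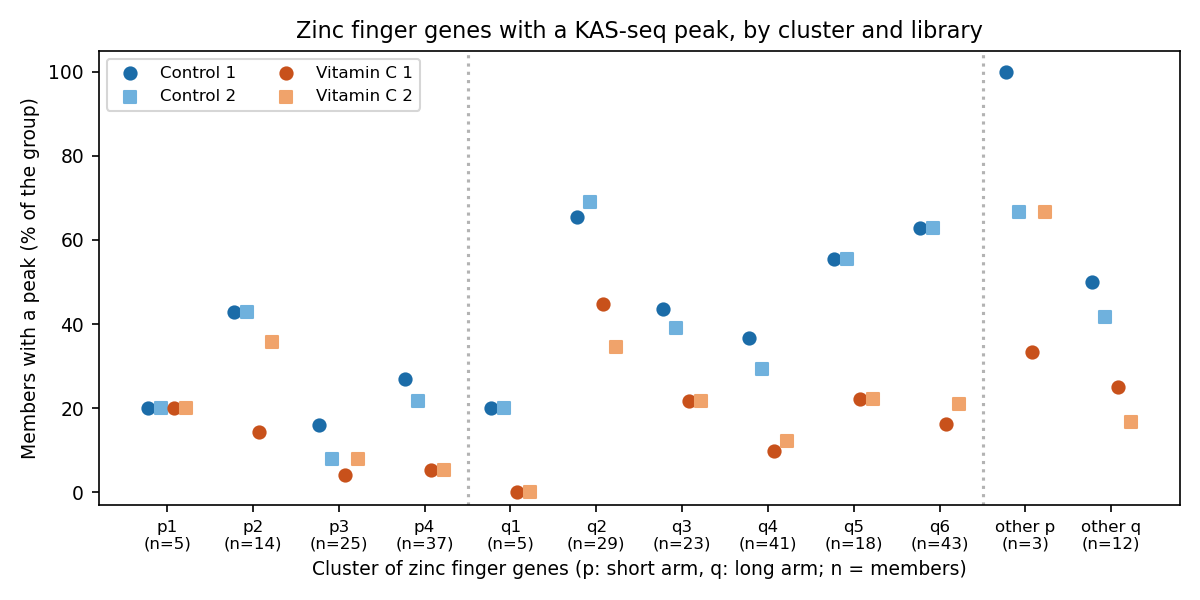
Percent of the zinc finger genes of each cluster with a peak (vertical axis) in each of the 4 libraries (points). Clusters run along the chromosome from p1 to q6, and n is the number of genes; the last groups are the genes outside clusters on each arm. In q6 the controls stand at 62.8% and the vitamin C libraries at 16.3% and 20.9%, and p3 stays at or below 16% throughout.

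Within the genes, summits gathered at the start. Of the peaks at the 222 genes whose strand is in the RefSeq promoter table, 27.8% and 29.1% in the controls had their summit within 1 kb of an annotated start (70 of 252 and 59 of 203), and 43.1% and 38.5% with vitamin C (25 of 58 and 25 of 65). Over all 255 genes, with either end counted as a start where the strand is not in the table, the share was 29.7 ± 0.644% for controls and 41.9 ± 3.08% for vitamin C (SD, n = 2), a difference of 12.2 points (exact two-sided permutation p = 0.33). Lists of equal length gave 3.64 points. Peaks elsewhere inside the gene made up 54.4% and 56.2% in the controls against 36.2% and 38.5% with vitamin C. Those within 1 kb of the far end made up 15.1% and 11.8% in the controls against 20.7% and 21.5% with vitamin C. At other coding genes of chromosome 19, 17.96% and 21.0% of control peaks lay near a start, and 23.4% and 23.6% of vitamin C peaks.

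Over both arms together, summits near a start lay mostly downstream of it, and most of these summits were on 19q. In the controls 64.3% and 64.4% of such summits were past the nearest annotated start, at a median of 196.5 and 176 bp, and with vitamin C 76.0% and 72.0%, at a median of 279 and 211 bp. At other coding genes of chromosome 19 the medians were 38 and 43.5 bp in the controls. The arms differed here as well: on 19q 33.2% and 35.3% of control peaks had a summit near a start, and on 19p 13.2% and 8.51%. With vitamin C the 19p values rested on 12 and 17 peaks. Summits near a start on 19p numbered 9 and 4 in the controls, at a median of 45 and -46 bp past it. On 19q they numbered 61 and 55, at 228 and 214 bp. With vitamin C they numbered 1 and 4 on 19p, at 504 and -62 bp, and 24 and 21 on 19q, at 264 and 215 bp. With genes divided into 10 equal parts from start to far end, part 1 held 25.9% and 22.5% of control summits inside genes and 32.1% and 29.0% of vitamin C summits. Part 8 held 3.24% and 3.30% in the controls, and part 10 held 12.04% and 12.6% in the controls against 16.1% and 22.6% with vitamin C.

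**Figure D5:**
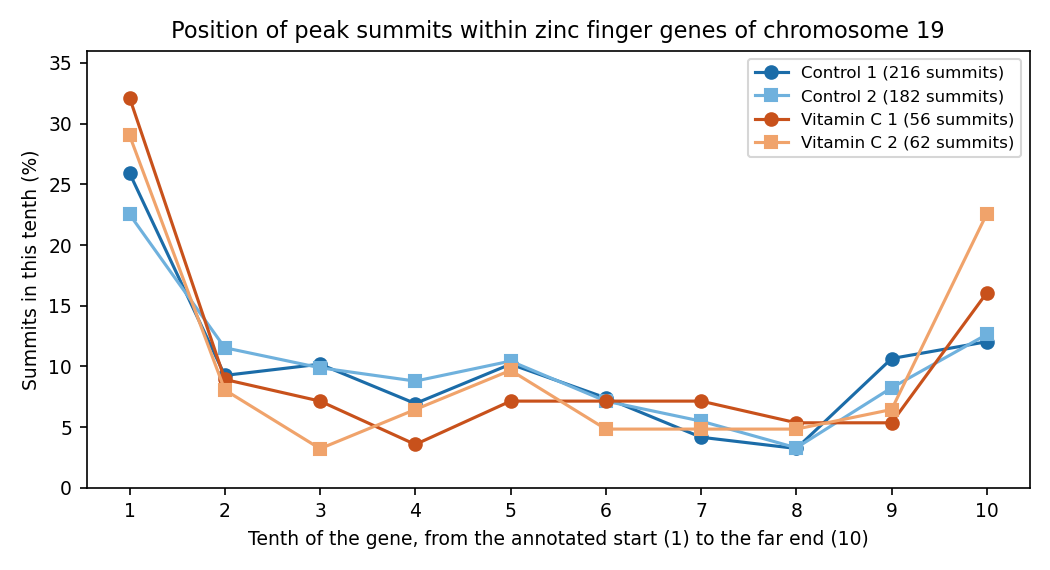
Percent of summits inside zinc finger genes of chromosome 19 (vertical axis) by 10% step along the gene, from the annotated start to the far end (horizontal axis); each line is 1 library, and the legend gives its number of summits. All 4 libraries are highest in the first step, at 22.5% to 32.1%, and rise again in the last.

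Some peaks met more than 1 of these genes: 23 of 263 and 23 of 212 for the controls, 12 of 59 and 12 of 68 for vitamin C. Another coding gene was also met by 7 and 6 control peaks and by 0 and 2 vitamin C peaks, and none overlapped an annotated small RNA gene. Peaks met 13 pairs of neighbours in at least 1 library and 3 pairs in all 4: ZNF565 with ZNF146, ZNF581 with ZNF580, and ZNF790 with ZNF345. A single peak was present at 45 of the genes with peaks in each control and at 31 in each vitamin C library, and 37 and 31 genes had at least 3 peaks in the controls, against 7 and 6 with vitamin C.

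Genes for the partners of KRAB zinc finger proteins were read the same way. Of 32 such genes, 27 had a peak in each control and 17 in each vitamin C library, with 12 kept, 4 lost and 4 without a peak in any library. Over all 19970 coding genes, 43.2% and 39.0% had a peak in the controls against 23.04% and 22.99% with vitamin C, and 17.5% were kept and 9.47% lost. The list was chosen with earlier results of these data known, and its difference from other genes was not tested. The strongest kept were CBX5 and CBX3, which encode heterochromatin protein 1 alpha and gamma, then UHRF1, which guides maintenance DNA methylation, and SUMO2, a protein modifier. CBX5 had folds of 23.5 and 18.9 in the controls against 20.7 and 13.4 with vitamin C. Among the lost were MPHOSPH8, for a subunit of the HUSH silencing complex, MORC2, whose protein acts with that complex, and the chromatin remodeller gene ATRX. MPHOSPH8 had control folds of 12.7 and 10.8, and ATRX 5.87 and 9.04. SETDB1 was kept, at 11.3 and 7.88 in the controls against 8.26 and 7.45 with vitamin C, while TRIM28 itself had no peak in any library.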

How the data were processed

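Each labelled library has its own deposited peak list. The submitters' processing notes name hg38 and, without roles, order or settings, MACS2 2.2.7.1, Bowtie2 2.4.5, cutadapt, Trim Galore, deepTools, and bcl2fastq 2.19. The authors' lists give peak positions, a linear fold ratio over background, and −log10 p and −log10 q (the deposited p-values and q-values), with no q above 0.00999. Other than chromosomes 1 to 22 and X, nothing was used, which left out 4.23% to 5.06% of a list.

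Fragments at a summit were solved from the deposited fold and −log10 p as MACS2 defines them, within 0.005, for 100% of peaks; vitamin C replicate 1 needed a scale of 0.776, and the genome background is the 5th percentile of the solved local backgrounds. Genes and starts came from RefSeq GRCh38.p14. Of the members, 33 have no strand in the promoter table. Values were compared over libraries by exact two-sided permutation tests. Intervals are 95% Clopper-Pearson. Counts of kept and lost genes carry no test.

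The members and lists were chosen with earlier results of these data known. Named are the 8 strongest kept and lost genes, all gained genes, the 5 with most covered bases, the strongest gene of each cluster, and of the partner list the lost and 4 strongest kept genes. Some genes of the partner and marker lists are not reported here. The arms were divided at 26 Mb. The code for presence calls was checked on simulated lists, where all 243 planted lost genes were recovered. Peaks were planted at genes meeting no other gene and in every library of their class. The check therefore does not cover shared peaks, replicates that differ or lists of unequal length. Same-numbered libraries did not deviate together over 19970 genes (correlation 0.0021), so the numbers were not taken as pairs. Alternatives were stricter q and fold, equal list length, other windows, summits, unshared peaks, a block and left-out libraries. Python 3.11.15, numpy 2.4.6, pandas 2.3.3 and scipy 1.17.1 were used.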

Additional observations from a re-analysis of the deposited data

How the results depend on the processing

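Mean numbers of genes, numbers of peaks and covered length were lower with vitamin C under every alternative run, while median width and the class counts did not hold. In lists of equal length little of this was left, at -6 genes and log2 ratios of -0.08 for peaks and -0.47 for covered length. There the libraries interleaved: vitamin C 2 had 47 genes and 68 peaks, against 46 and 60 in control 1. The width difference of 8 bp became -72.0 bp in lists of equal length, -7.25 bp at −log10 q of at least 5, -1.25 bp at a fold of at least 5, -12.5 bp with genes widened by 5 kb, -1 bp with peaks at 1 coding gene only, and -5.50 to 21.5 bp with single libraries left out. Lost genes numbered 5 in lists of equal length and 43 to 55 with single libraries left out, and kept genes 28 to 45, where a group of 1 library asks less of a call. Kept genes at the same region numbered 18, a setting added after seeing the data. Without the entries of hyphenated symbols, an unplanned setting, 28 were kept and 33 lost, and the difference in genes with a peak was -62. Gained genes numbered 1 in lists of equal length (ZNF888), 1 with peaks at 1 coding gene only (ZNF577) and 0 to 3 with each library left out. Leaving out a library can only keep or raise the counts of kept, lost and gained genes, by the rule for a call. Apart from equal lengths, the cause of the shifts was not tested. Adding the replicate block gave -1.90 (log2) for member peaks, -1.96 (log2) for their covered length and 12.2 points for summits near a start. No direction changed, but in this balanced design the block leaves differences of means the same by construction. The share of kept genes lay below that of other genes under each alternative that gave both, and the share of lost genes above it.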
